A study of Homo sapiens with 15 samples.

Results

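The ERBB family of receptor tyrosine kinases and the proteins that restrain it were examined in LNCaP cells, a human prostate cancer line that responds to androgen, with and without the androgen receptor antagonist enzalutamide. The 7 genes were taken by symbol. They are the receptors EGFR, ERBB2, ERBB3 and ERBB4, the cytoplasmic inhibitor ERRFI1 and the transmembrane proteins LRIG1 and LRIG3. Of these, 6 had a row among the 17272 genes of the expression table, and ERBB4 was not analysed here. All 6 passed the filter on low values, which left 17046 genes for testing.

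Every culture was kept for 2 days in medium with charcoal-stripped serum and was then given the synthetic androgen R1881 at 1 nM. In 10 libraries the androgen was given with the solvent DMSO (R1881), and in 5 libraries together with 2 µM enzalutamide (R1881 + enzalutamide). Cells were collected at 22 h, and polyadenylated RNA was sequenced. The comparison asks how blocking the androgen receptor changes expression in cells that receive androgen, and it rests on 1 cell line, 1 dose of each compound and 1 time point. Library numbers in the sample descriptions run from 51 to 55 and from 71 to 75 for R1881, and from 81 to 85 for R1881 + enzalutamide. What these numbers mean is not given in the sources used, and a difference that goes with a series of numbers cannot be told apart from the treatment.

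As background, ERBB receptors pair with each other when a ligand binds, phosphorylate each other and pass the signal to the RAS-MAPK and PI3K-AKT pathways. ERBB2 has no known ligand of its own and serves as the preferred partner, while ERBB3 binds neuregulins, has a weak kinase and carries many docking sites for PI3K. The family is held in check at several levels. ERRFI1, also called MIG6, binds the active kinase domain and blocks it, LRIG1 binds the receptors at the membrane and promotes their degradation, and LRIG3 is a relative of LRIG1 whose effect on the receptors is less settled.

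The 5 measured members with an entry in the RefSeq promoter table of GRCh38.p14 are shown with their promoters. Expression played no part in which of the measured members are shown. Each stretch spans 250 bases before and 50 bases after the annotated start nearest to the start of the gene, and is written 5′ to 3′ on the strand of the gene. ERBB3 had no entry. Capitals mark the letters of a CCAAT box (CCAAT or ATTGG) and of the single arm of the androgen response element (AGAACA or TGTTCT).
ERRFI1, chr1:8026260-8026559, minus strand: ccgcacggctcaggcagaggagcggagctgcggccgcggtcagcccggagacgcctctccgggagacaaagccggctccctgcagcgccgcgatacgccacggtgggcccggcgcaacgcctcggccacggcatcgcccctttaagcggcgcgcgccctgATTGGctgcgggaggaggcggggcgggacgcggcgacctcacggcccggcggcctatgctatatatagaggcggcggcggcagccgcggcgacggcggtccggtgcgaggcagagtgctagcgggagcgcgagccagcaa
LRIG1, chr3:66501072-66501371, minus strand: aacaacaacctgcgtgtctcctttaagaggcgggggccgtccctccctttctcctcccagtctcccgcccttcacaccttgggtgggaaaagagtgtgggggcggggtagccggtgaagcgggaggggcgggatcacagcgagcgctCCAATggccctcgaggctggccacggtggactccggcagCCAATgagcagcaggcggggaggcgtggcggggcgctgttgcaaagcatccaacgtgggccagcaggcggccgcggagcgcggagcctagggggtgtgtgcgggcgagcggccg
EGFR, chr7:55018767-55019066, plus strand: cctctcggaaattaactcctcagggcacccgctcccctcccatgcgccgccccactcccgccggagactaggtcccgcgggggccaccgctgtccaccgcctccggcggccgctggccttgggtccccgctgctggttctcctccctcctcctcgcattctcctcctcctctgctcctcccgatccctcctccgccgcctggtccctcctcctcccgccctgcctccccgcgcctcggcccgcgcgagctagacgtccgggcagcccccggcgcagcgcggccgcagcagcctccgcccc
LRIG3, chr12:58920455-58920754, minus strand: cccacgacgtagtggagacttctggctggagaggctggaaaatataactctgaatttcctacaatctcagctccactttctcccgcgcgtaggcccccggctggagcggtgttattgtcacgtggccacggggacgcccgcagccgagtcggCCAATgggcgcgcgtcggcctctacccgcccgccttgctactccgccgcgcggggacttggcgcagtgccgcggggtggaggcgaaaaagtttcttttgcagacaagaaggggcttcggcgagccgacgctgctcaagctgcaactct
ERBB2, chr17:39687844-39688143, plus strand: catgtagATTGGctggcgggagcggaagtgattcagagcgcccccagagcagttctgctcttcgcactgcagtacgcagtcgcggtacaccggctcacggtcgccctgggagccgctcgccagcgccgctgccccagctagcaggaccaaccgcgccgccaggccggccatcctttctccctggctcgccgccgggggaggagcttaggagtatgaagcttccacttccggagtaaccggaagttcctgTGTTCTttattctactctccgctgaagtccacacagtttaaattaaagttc

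The full palindromic androgen response element, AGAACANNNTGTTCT, was in none of these 5 promoters and in 1 of the 35116 promoters of the table. Its single arm was in that of ERBB2, and 14.8% of all promoters held it on either strand. The forkhead motif TGTTTAC was in none of the 5, beside 3.42% of all promoters. The letters of a CCAAT box, looked for only after the sequences had been read, were in 4 of the 5, all but EGFR. They were in 34.6% of all promoters. The ERRFI1 and EGFR stretches were rich in G and C, at 74.7% and 75.3%, and held 47 and 33 CG dinucleotides. The ERBB2 stretch overlaps PGAP3, a gene on the opposite strand, and its RefSeq start lies 180 bases from the start of the gene in GENCODE. Whether its matches, the CCAAT letters included, belong to the coding part of PGAP3 or act on ERBB2 was not tested. The LRIG3 stretch overlaps the divergent transcript LRIG3-DT. These matches describe the windows shown and no others.

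The androgen-induced genes KLK3, KLK2, FKBP5 and TMPRSS2 served as a check of the labels, and no library with enzalutamide overlapped the R1881 libraries. The median of KLK3 decreased by 91.4% and that of FKBP5 decreased by 96.9%, with KLK2 and TMPRSS2 between them. All 6 luminal prostate markers were present, with summed levels of 5344 to 5907 CPM (read counts scaled by library size, as deposited) with R1881 and 3451 to 3567 CPM with R1881 + enzalutamide. Basal cells were represented by 1 of 4 markers, stroma by 2 of 4, endothelium by 1 of 3 and immune cells by 0 of 3. The basal marker present, KRT14, lay between 0.706 and 1.44 CPM with R1881 and between 0 and 0.279 CPM with R1881 + enzalutamide. The summed stromal markers lay between 7.77 and 12.1 CPM and between 11.3 and 16.3 CPM, and the endothelial marker VWF between 2.08 and 2.84 CPM and between 2.84 and 3.35 CPM. Their part in the results below was not tested. The libraries held between 15830745 and 25416052 reads.

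Enzalutamide moved the receptors in different directions and lowered the brakes ERRFI1 and LRIG1. ERRFI1 and LRIG1 fell by 5.28-fold and 4.31-fold, EGFR fell by 1.93-fold, ERBB2 and LRIG3 rose by 2.25-fold and 2.40-fold, and ERBB3 differed by -0.09 on the log2 scale. In the test over all genes (limma on log2(CPM + 0.5), Benjamini-Hochberg adjusted p under 0.05), 4 members were lower and 2 higher with enzalutamide, which makes 6 of 6, although the call of ERBB3 depended on the scaling. This count has to be read against a background of 62.5% of all tested genes called in either direction, 32.7% lower and 29.8% higher. Calls of 2-fold or more were made for 2 members in the lower direction, beside 4.19% of all genes, and for 2 members in the higher direction, beside 3.26%. The libraries of the treatments did not overlap for 5 of the 6, beside 37.2% of all genes. The median size of the log2 change was 1.22 over the members and 0.24 over all genes tested. The members were chosen with earlier results of these data known, so this comparison with all genes cannot show an excess for the family. In bulk RNA, fewer cells that express a gene and less of its RNA per cell cannot be told apart.

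**Figure D1:**
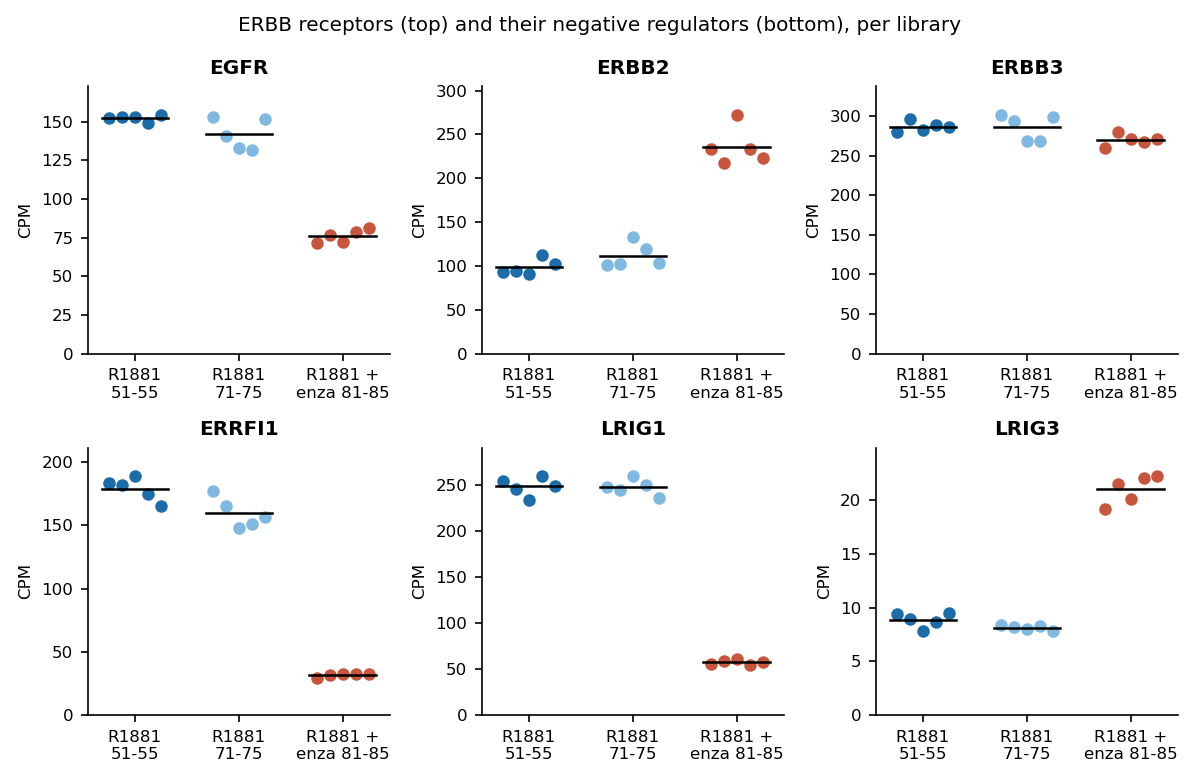
Expression of the 6 measured members in CPM (vertical axes, from 0), with 1 point per library and black lines at the mean of each series of library numbers. The red points (R1881 + enzalutamide) lie below all blue points (R1881) for EGFR, ERRFI1 and LRIG1, above them for ERBB2 and LRIG3, and within reach of them for ERBB3.

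EGFR, the receptor of EGF and TGF-alpha, lies on chromosome 7 (plus strand, 55019017 to 55211628, GRCh38, with 28 exons in the canonical transcript of GENCODE v44). With R1881 its level ranged from 132 to 154 CPM with a median of 152 CPM. In R1881 + enzalutamide replicates 1 to 5 it was 76.8, 72.4, 71.1, 80.8 and 78.7 CPM. The lowest R1881 library thus stood well above the highest R1881 + enzalutamide library. The means were 147 ± 8.60 CPM (SD over 10 libraries) and 76.0 ± 4.11 CPM (SD over 5 libraries), and the log2 fold change was -0.95 (standard error, SE, 0.045, limma adjusted p = 9.24e-14). An exact two-sided permutation test of the library labels gave p = 0.000333, the smallest that 3003 regroupings allow. This smallest p was also reached by ERBB2, ERRFI1, LRIG1 and LRIG3.

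ERBB2, the partner without a ligand, lies on chromosome 17 (plus strand, 39687914 to 39730426, 27 exons). Its level with R1881 ranged from 90.7 to 133 CPM with a median of 102 CPM. In R1881 + enzalutamide replicates 1 to 5 it was 218, 273, 233, 224 and 233 CPM. Every library with enzalutamide was above every library without it, and replicate 2 stood above the others. The means were 105 ± 13.0 CPM (SD over 10 libraries) and 236 ± 21.5 CPM (SD over 5 libraries), a log2 fold change of 1.17 (SE 0.074, limma adjusted p = 1.42e-11). In relative terms ERBB2 varied most among the R1881 libraries, with a coefficient of variation of 12.4%, where the other members lay between 3.51% and 8.38%.

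ERBB3, the neuregulin receptor, lies on chromosome 12 (plus strand, 56076799 to 56103505, 28 exons). With R1881 it ranged from 269 to 302 CPM with a median of 288 CPM, and R1881 + enzalutamide replicates 1 to 5 held 280.4, 271, 259.9, 271 and 268 CPM. The treatments overlapped. The log2 fold change was -0.09 (SE 0.033, 95% interval -0.15 to -0.02, adjusted p = 0.0282 from limma), and the exact permutation test of the labels gave p = 0.0160. The sign depended on the scaling of the libraries: with library totals set to 1000000 the log2 fold change was 0.01 (adjusted p = 0.831 from limma), and by edgeR on the reads recovered from the deposited values it was -0.04 (adjusted p = 0.216). Without R1881 + enzalutamide replicate 3 or replicate 5 the adjusted p was 0.0888 and 0.0591, so no direction is given for ERBB3.

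ERRFI1, the kinase inhibitor, lies on chromosome 1 (minus strand, 8004404 to 8026309, 4 exons). With R1881 it ranged from 148 to 189 CPM with a median of 170.35 CPM. In R1881 + enzalutamide replicates 1 to 5 it was 31.9, 32.4, 29.1, 32.2 and 32.6 CPM. These libraries were close together and far below all R1881 libraries. The median decreased by 81.1%, and the log2 fold change was -2.40 (SE 0.054, limma adjusted p = 2.97e-19). Among the 17046 genes tested its log2 fold change ranked 103 from the lowest.

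LRIG1, which promotes the breakdown of ERBB receptors, lies on chromosome 3 (minus strand, 66378797 to 66501263, 19 exons). Its level with R1881 ranged from 234 to 259.5 CPM with a median of 248 CPM. In R1881 + enzalutamide replicates 1 to 5 it was 58.2, 60.5, 55.8, 57.5 and 53.9 CPM. Relative to the mean, the R1881 libraries varied least for this gene among the members, and no library of either treatment came near the other range. The median decreased by 76.8%, with a log2 fold change of -2.11 (SE 0.034, limma adjusted p = 1.11e-21).

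LRIG3, a gene of 19 exons on chromosome 12 (minus strand, 58872149 to 58920504), had the lowest level per kilobase of the members. With R1881 it ranged from 7.78 to 9.48 CPM with a median of 8.29 CPM, which rested on 115 to 215 reads per library. In R1881 + enzalutamide replicates 1 to 5 it was 21.5, 20.1, 19.2, 22.2 and 22.1 CPM. All libraries with enzalutamide lay above all libraries without it. The log2 fold change was 1.26 (SE 0.061, limma adjusted p = 1.51e-13), opposite in sign to that of LRIG1. The remaining gene of this family, LRIG2, rose from 29.8 ± 1.76 CPM (SD over 10 libraries) to 38.2 ± 1.46 CPM (SD over 5 libraries), a log2 fold change of 0.35 (adjusted p = 1.11e-06 from limma). LRIG2 is no member and was picked for naming here after its values were seen. It is also counted below among the further genes that restrain receptor signalling.

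**Figure D2:**
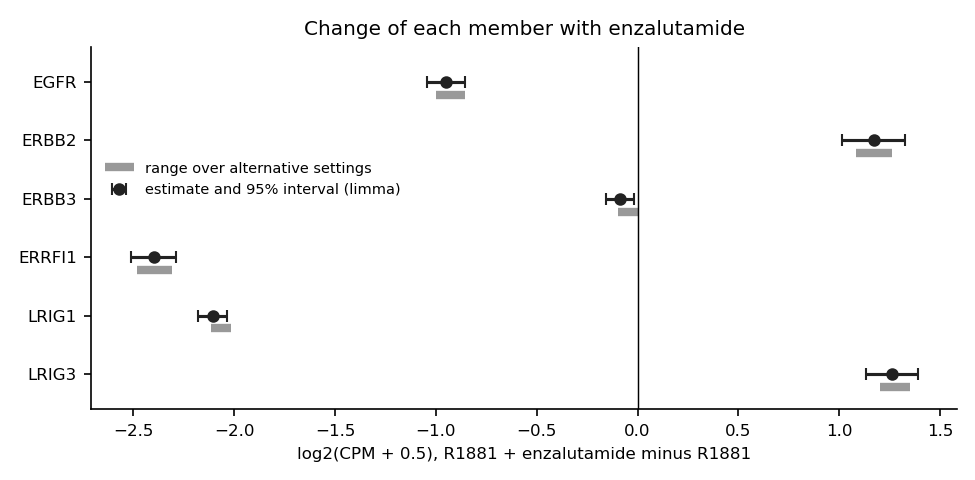
Difference between treatments for each member on the log2(CPM + 0.5) scale (horizontal axis), with the estimate and its 95% interval from limma as a black point and the range over 14 alternative settings as a grey bar. The bars stay on 1 side of 0 for all members but ERBB3, whose bar runs from -0.10 to 0.01.

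Per kilobase of the canonical transcript, ERRFI1 and ERBB2 changed places in the order of the members. With R1881 the order of the median level was ERRFI1 (55.0 CPM per kb), ERBB3 (51.3), LRIG1 (46.3), ERBB2 (22.4), EGFR (15.3) and LRIG3 (2.05). The ranges of ERRFI1 and ERBB3, and of ERBB3 and LRIG1, overlapped, and those of the other neighbours in this order did not. With R1881 + enzalutamide the order was ERBB2 (51.1 CPM per kb), ERBB3 (48.3), LRIG1 (10.7), ERRFI1 (10.4), EGFR (7.75) and LRIG3 (5.32), with overlap between ERBB2 and ERBB3 and between LRIG1 and ERRFI1. The order depended on the length used. The canonical transcript of EGFR, at 9905 bases, is mostly outside the coding part. Per kilobase of coding length EGFR stood above ERBB2 with R1881, at 41.9 against 27.1 CPM per kb, and below it with R1881 + enzalutamide, at 21.1 against 61.8 CPM per kb. On this scale ERBB3 stood above ERBB2 with R1881 + enzalutamide, at 67.4 CPM per kb, with overlapping ranges, and LRIG1, at 17.5 CPM per kb, stood below ERRFI1 (23.2) and EGFR without overlap. With R1881 LRIG1, at 75.7 CPM per kb, stood above ERBB3 (71.5), with overlapping ranges.

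Of the summed level per kilobase of EGFR, ERBB2 and ERBB3, ERBB2 made up a median of 24.95% with R1881 (range 23.2% to 32.2%) and 47.9% with R1881 + enzalutamide (45.3% to 51.8%). The share of ERBB3 went from 58.3% to 44.7% and that of EGFR from 16.8% to 7.35%, and for each of the 3 receptors the ranges of the treatments were apart. Among the brakes, LRIG3 made up 2.01% with R1881 (range 1.81% to 2.29%) and 20.1% with R1881 + enzalutamide (18.6% to 20.97%). ERRFI1 went from 52.8% to 39.03%, while the ranges of LRIG1, with medians of 45.2% and 41.0%, overlapped. Per kilobase of coding length, a scale added after the data were seen, the share of EGFR was 29.2% with R1881 and 14.2% with R1881 + enzalutamide. That of ERBB2 was 19.1% and 41.2%, and that of ERBB3, then the largest in both treatments by its median, was 51.3% and 44.3%. LRIG3 made up 1.25% and 13.6% of the brakes on that scale, and ERRFI1 60.7% and 48.9%. The direction of these 5 shares was the same with either length. The shares describe RNA of the genes with values and leave out ERBB4. A share also moves when the other genes of its set change. The level of ERBB3 itself differed by -0.09 on the log2 scale, and LRIG3 rose by 2.40-fold while ERRFI1 and LRIG1 fell.

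**Figure D3:**
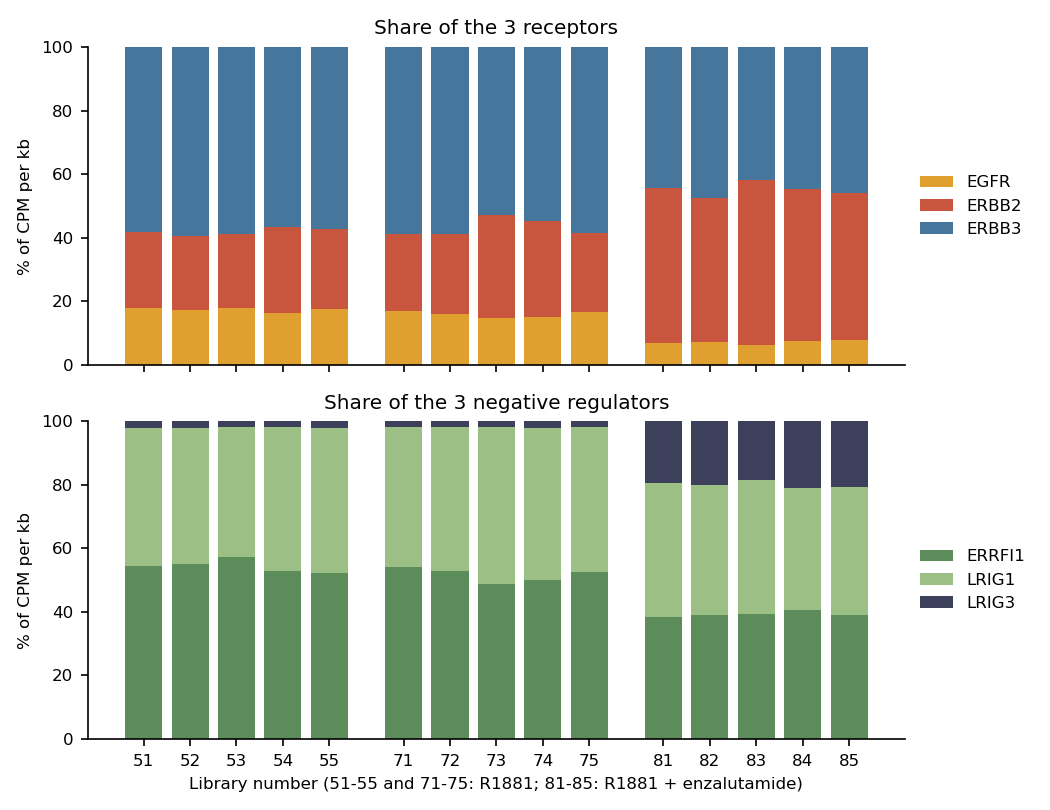
Share of each gene in the summed CPM per kilobase of canonical transcript (vertical axes, percent), for the 3 receptors above and the 3 negative regulators below, with 1 bar per library ordered by library number. ERBB2 takes 23.2% to 32.2% of the receptor RNA in libraries 51 to 75 and 45.3% to 51.8% in libraries 81 to 85.

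The ratio of 2 members within a library does not depend on how the library was scaled, apart from the pseudocount. All 15 pairs were compared with an exact two-sided permutation test of the labels, and 14 pairs had changed unequally (p adjusted over the pairs at most 0.00178). For 13 pairs the ratios of the treatments did not overlap. The pairs share members, so they are not separate results, and the share among pairs of other genes was not worked out. The widest shift among pairs of a receptor and a brake was that of ERBB2 over ERRFI1, whose log2 ratio went from -0.69 ± 0.28 (SD over 10 libraries) to 2.88 ± 0.13 (SD over 5 libraries). ERBB2 over LRIG1 went from -1.25 ± 0.15 to 2.03 ± 0.11, and ERBB3 over ERRFI1 from 0.76 ± 0.11 to 3.08 ± 0.05. EGFR fell less than ERRFI1, so the log2 ratio of EGFR over ERRFI1 went up too, from -0.20 ± 0.08 to 1.25 ± 0.06. LRIG1 over LRIG3 went from 4.79 ± 0.09 to 1.42 ± 0.12. ERRFI1 and LRIG1, which fell together, still differed in the size of their fall by -0.29 on the log2 scale (exact permutation p = 0.00167), with overlapping ratios. The pair that did not pass was ERBB2 and LRIG3, whose ratio differed by -0.09 (exact permutation p = 0.442), a p that does not show that they rose alike.

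The R1881 libraries 51 to 55 and 71 to 75 were also compared with each other, to set the treatment difference beside the spread within a treatment. By limma 0 of the 6 members passed an adjusted p of 0.05, beside 3.17% of all genes. An unadjusted p under 0.05, for which the share of all genes is not given here, was reached by 3 of the 6. These were ERRFI1, with a median of 182 CPM in libraries 51 to 55 and 157 CPM in libraries 71 to 75, EGFR with 153 and 141 CPM, and ERBB2 with 94.1 and 103 CPM. No other tool was run on this comparison. The treatment difference of these genes was between 6.59 and 14.5 times as large as the series difference on the log2 scale. Against libraries 51 to 55 alone the log2 fold change with enzalutamide was -2.48 for ERRFI1, -0.9999 for EGFR and 1.26 for ERBB2, and against libraries 71 to 75 alone it was -2.32, -0.90 and 1.082.

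The level of ERBB2 moved with the base composition of the libraries. For each library, the deviation of every gene from its treatment mean was set against the GC content of its canonical transcript. The link, as Spearman's rho across 14623 genes that are not independent of each other, ranged from -0.63 to 0.74. The R1881 libraries with the highest rho, replicates 6 and 5, had the highest ERBB2 values, 133 and 119 CPM, and R1881 + enzalutamide replicate 2, with a rho of 0.72, had the highest value of its group. The ERBB2 transcript has the highest GC content of the members, 60.4%. After each library was freed of its GC trend, a step added after the data were seen, the SD of ERBB2 on the log2 scale went from 0.17 to 0.05 with R1881 and from 0.13 to 0.02 with R1881 + enzalutamide. Its log2 fold change was then 1.21 (SE 0.025, limma adjusted p = 1.52e-23). For ERRFI1, at 43.5% GC the lowest measured member, the log2 fold change was -2.42 with the trend removed. The SD did not fall in every case, and that of ERRFI1 with R1881 + enzalutamide went from 0.067 to 0.092. The trend was fitted to deviations from the mean over all libraries, so a treatment difference linked to GC content is removed with it.

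**Figure D4:**
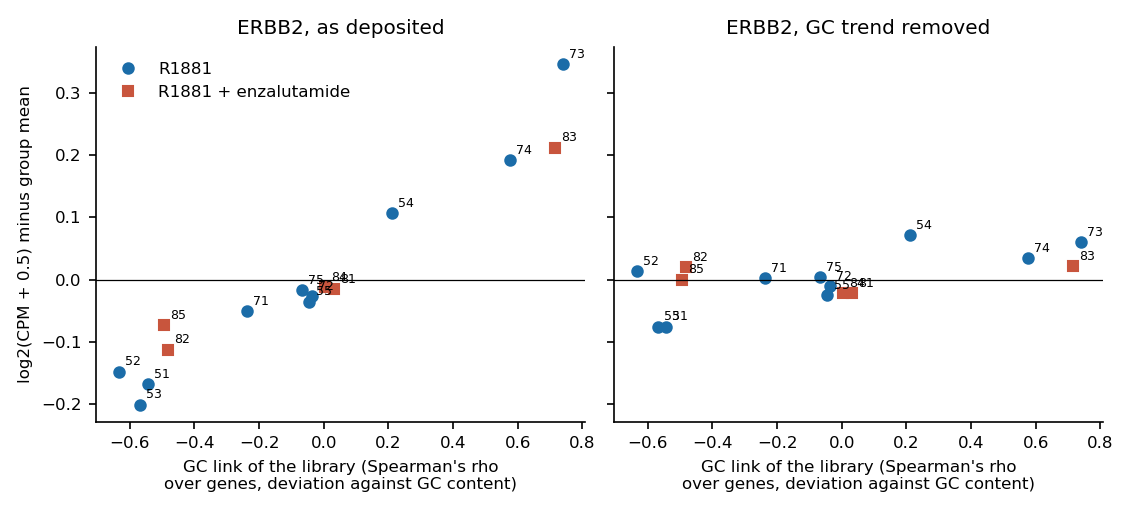
ERBB2 in each library as log2(CPM + 0.5) minus the mean of its treatment (vertical axes), against the rank correlation across genes between the deviations of that library and GC content (horizontal axes), with library numbers beside the points. The deviations span -0.20 to 0.35 as deposited, where libraries 73, 74 and 83 lie highest, and -0.08 to 0.07 with the GC trend removed.

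Genes that overlap the members could alter their counts if reads were counted without regard to strand. The study names a stranded library kit, but the strand setting used in counting is not stated. ERBB2 is overlapped on the opposite strand by PGAP3, at 17.3 ± 1.40 CPM (SD over 10 libraries) with R1881 and 16.7 ± 0.931 CPM (SD over 5 libraries) with R1881 + enzalutamide, and by MIEN1, at 77.1 ± 5.25 and 81.9 ± 4.46 CPM. Neither passed the test (adjusted p = 0.514 and 0.120 from limma). GRB7, which encodes an ERBB2-binding adaptor and lies 7501 bases from ERBB2 on the same strand, had 5.72 ± 0.9902 and 6.42 ± 1.36 CPM (adjusted p = 0.309 from limma). Farther away, STARD3 and TCAP rose by 0.39 and 0.45 on the log2 scale, and IKZF3, at a distance of 27292 bases, rose from 3.45 ± 0.507 to 7.87 ± 0.396 CPM (adjusted p = 1.13e-09 from limma). LRIG1 is overlapped by SLC25A26 on the opposite strand, which rose from 12.5 ± 1.02 to 15.3 ± 0.478 CPM while LRIG1 fell. PA2G4, 1032 bases from ERBB3 on the same strand, encodes a protein known to bind ERBB3, and it fell from 230.0 ± 8.73 to 168 ± 4.98 CPM.

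The other genes of ERBB signalling were taken from lists written by role, with earlier results of these data known. The sign of each list median was the same with library totals set to 1000000, with TMM or median-ratio factors, by edgeR and by DESeq2. Of 11 ligand genes 5 had values, of which 3 were higher and 2 lower with enzalutamide. These counts and those of the lists that follow stand beside 29.8% of all tested genes called higher and 32.7% called lower, 62.5% in all. NRG3, a neuregulin known as a ligand of ERBB4, rose from 4.77 ± 0.754 CPM (SD over 10 libraries) to 19.0 ± 1.44 CPM (SD over 5 libraries), a log2 fold change of 1.89 (adjusted p = 1.41e-13 from limma). TGFA, the EGFR ligand TGF-alpha, rose from 9.70 ± 0.736 to 19.1 ± 0.927 CPM, and EGF from 3.92 ± 0.463 to 4.64 ± 0.567 CPM. HBEGF, another EGFR ligand, fell from 5.196 ± 0.529 to 3.86 ± 0.422 CPM, and NRG4, also a ligand of ERBB4, from 1.90 ± 0.300 to 1.31 ± 0.227 CPM. The median log2 fold change of the 5 was 0.22, beside -0.01 over all genes tested.

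Of the 8 genes with values that release ligands from the membrane or help to do so, 5 were lower and 1 was higher, with a median log2 fold change of -0.19. The number called, 6 of 8, was near the 62.5% of all genes. With library totals set to 1000000, 2 were lower and 1 was higher, where 4288 of 17018 genes tested were lower and 6629 higher. ADAM9, a membrane protease, fell from 527 ± 22.3 CPM (SD over 10 libraries) to 327 ± 21.1 CPM (SD over 5 libraries), and ADAM10, which cleaves EGF and betacellulin precursors, from 272 ± 23.4 to 237 ± 13.0 CPM. RHBDF1, an iRhom that helps the protease ADAM17 to the surface, fell from 29.5 ± 4.11 to 23.8 ± 2.86 CPM. ADAM10 and RHBDF1 missed the threshold with library totals set to 1000000 (limma adjusted p = 0.0797 and 0.0571). ADAM15 was at 246 ± 32.1 and 244 ± 30.9 CPM and did not pass.

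Of 26 adaptors and direct effectors, 10 were higher and 8 lower, near the 62.5% of all genes called, with a median log2 fold change of 0.06. With library totals set to 1000000 the split was 12 higher and 5 lower. In that setting 6629 of all 17018 genes tested were called higher and 4288 lower. Both measured genes of the listed PI3K regulatory subunits rose, PIK3R1 from 162 ± 14.0 CPM (SD over 10 libraries) to 263 ± 18.3 CPM (SD over 5 libraries) and PIK3R3 from 181 ± 11.1 to 315 ± 17.1 CPM. GAB1, a docking protein between receptors and PI3K, rose from 11.1 ± 1.09 to 18.3 ± 2.42 CPM. The SHC adaptors SHC3 and SHC4 rose by 0.91 and 1.26 on the log2 scale from levels of 1.30 and 0.678 CPM. GRB2, the adaptor that brings SOS to the receptors, rose from 149 ± 2.51 to 179 ± 4.62 CPM, and STAT3 fell from 265 ± 5.09 to 207 ± 5.59 CPM. PTPN11, which encodes the phosphatase SHP2, had 242 ± 16.3 and 232 ± 12.8 CPM and did not pass.

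Of 21 genes of receptor ubiquitylation and endocytosis, 13 were lower, beside 32.7% of all genes, and 4 higher, beside 29.8%, with a median log2 fold change of -0.18. With library totals set to 1000000, 8 were lower and 4 higher, where 4288 of 17018 genes tested were lower and 6629 higher. EPS15, a clathrin-coat protein that takes up EGFR, fell from 232 ± 14.7 CPM (SD over 10 libraries) to 137 ± 5.35 CPM (SD over 5 libraries), and the ubiquitin ligase gene NEDD4L from 463 ± 11.6 to 276 ± 8.99 CPM. RNF41, whose product NRDP1 is known to ubiquitylate ERBB3, fell from 168 ± 3.38 to 142 ± 4.13 CPM, and the ligase WWP1 from 202 ± 14.9 to 184 ± 10.3 CPM, a difference that missed the threshold with library totals set to 1000000 (limma adjusted p = 0.5004). TSG101, of the endosomal sorting machinery, rose from 114 ± 3.47 to 125 ± 4.69 CPM.

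Among 12 further genes that restrain receptor signalling, 9 were higher, beside 29.8% of all genes, and 3 lower, beside 32.7%, with a median log2 fold change of 0.28. ERRFI1 and LRIG1 moved the other way from most of this list. GRB10, an adaptor that binds and inhibits receptor tyrosine kinases such as the insulin receptor, rose from 186 ± 6.20 CPM (SD over 10 libraries) to 809 ± 18.6 CPM (SD over 5 libraries), a log2 fold change of 2.12 (SE 0.030, limma adjusted p = 1.47e-22). Its relative GRB14 rose from 2.06 ± 0.259 to 4.17 ± 0.495 CPM. The receptor-type phosphatase PTPRK, which can dephosphorylate EGFR, rose from 27.7 ± 2.75 to 52.8 ± 2.63 CPM, and PTPRG from 32.9 ± 2.65 to 37.0 ± 2.25 CPM. The phosphatases PTPN9, PTPN1 and PTPRJ fell by 0.83, 0.71 and 0.69 on the log2 scale. PTPN2, another phosphatase of EGFR, rose from 33.7 ± 1.21 to 39.04 ± 1.63 CPM, and SOCS4 from 49.1 ± 3.65 to 56.6 ± 3.32 CPM.

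Of 6 partners and chaperones with values 4 were lower and 0 higher, with a median log2 fold change of -0.26. The number called was near the 62.5% of all genes, and it was 3 with library totals set to 1000000, with TMM or median-ratio factors, by edgeR and by DESeq2, in each of which HSP90AB1 missed the threshold. The kinase gene TNK2 fell from 25.5 ± 7.13 CPM (SD over 10 libraries) to 15.3 ± 4.08 CPM (SD over 5 libraries), with overlap between the treatments. The chaperone HSP90, which stabilizes ERBB2, is encoded by HSP90AA1, at 1858 ± 63.5 and 1779 ± 90.9 CPM (adjusted p = 0.110 from limma), and HSP90AB1, at 2493 ± 75.5 and 2376 ± 73.8 CPM (adjusted p = 0.0457 from limma, with a sign that flipped to 0.02 with library totals set to 1000000). ERBIN, a scaffold that binds ERBB2, is listed under its older symbol ERBB2IP, and had 223 ± 19.0 and 223 ± 11.9 CPM (adjusted p = 0.980 from limma).

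**Figure D5:**
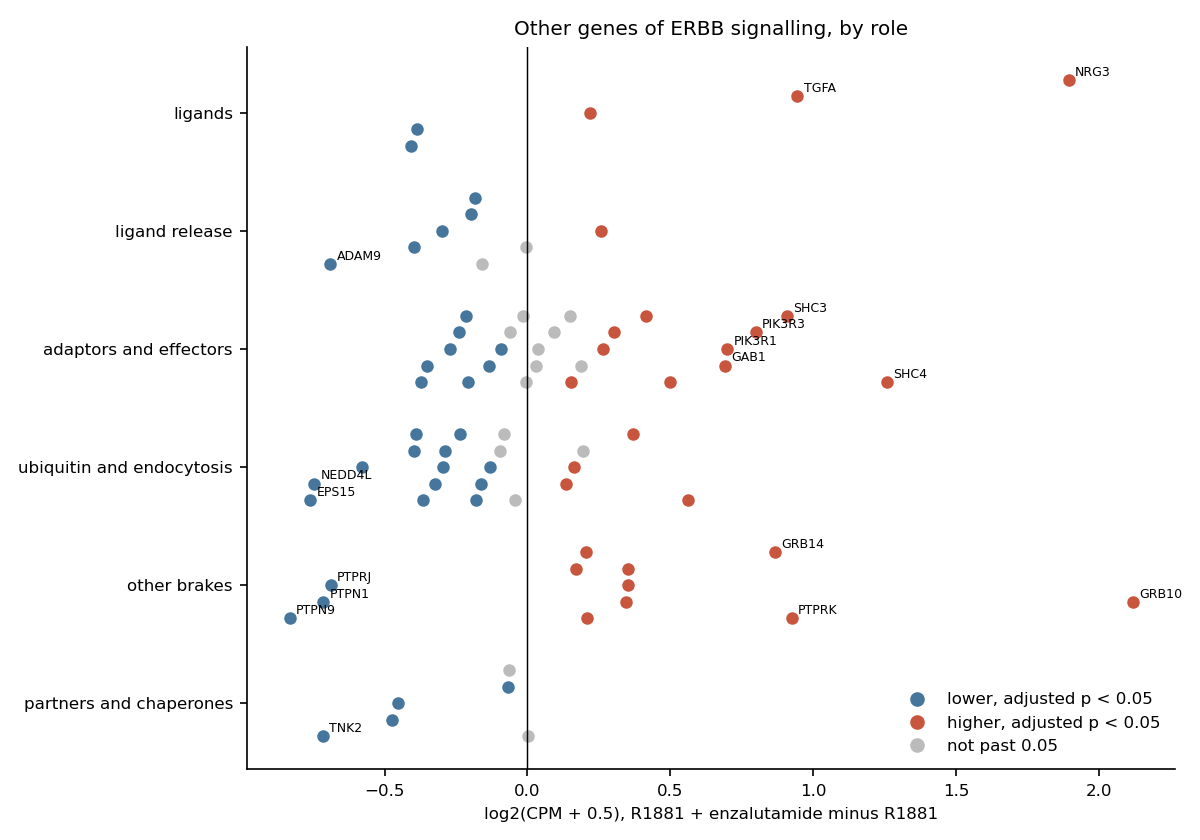
Difference between treatments on the log2(CPM + 0.5) scale (horizontal axis) for the tested genes of 6 lists by role (vertical axis), with 1 point per gene, red and blue where the adjusted p from limma was under 0.05 and grey otherwise. GRB10 at 2.12 and NRG3 at 1.89 lie farthest to the right, and the ubiquitin and endocytosis list lies mostly to the left of 0.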

How the data were processed

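The authors aligned single-end reads of 50 bases to GRCh38 with STAR and counted reads per gene with featureCounts, after bcl2fastq 2.17 per the labels. The authors deposited a normalized signal for each gene in each library, named CPM in the methods of the study. Versions of the aligner and counter, the annotation, the strand setting, the gene filter and the scaling of libraries are not stated in the sources used here. The deposited columns summed to between 985580 and 1078567, so the library sizes were not plain totals, and 100% of values gave whole reads within a tolerance of 0.01 reads once divided by what 1 read was worth. No column was without a sample. Sample labels give the treatments. The methods state the numbers of replicates the other way round and call them biological replicates, so if they are not separate cultures the p-values measure technical spread only. No library appeared to be deposited more than once, since the counts of all 55 within-treatment pairs gave a chi-square of at least 1.63 per degree of freedom.

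Differences were tested with limma 3.58.1 in R 4.3.3 (mean-variance trend, log2(CPM + 0.5), treatment as the only term) for genes with a mean of at least 0.5 CPM. On this scale the fold changes of low genes come out too small. The design assumed CPM, and the unit was then recorded as a signal. Alternatives were pseudocounts of 0.1 and 1, no filter or a mean of at least 1, totals set to 1000000, TMM and median-ratio factors, edgeR 4.0.16 and DESeq2 1.42.0 on recovered reads, replicate blocks, each R1881 series alone and each library left out. The removal of the GC trend (spline with 5 degrees of freedom, 85.8% of tested genes matched) was added after the data were seen. On the recovered reads edgeR called 10744 genes and DESeq2 10552, against 10660 by limma. The fit was also run on simulated reads with 200 genes changed 2-fold. It called 98.5% of these and 4 of 16846 unchanged genes. The simulated reads had the same spread setting for every gene and no GC trend or series difference. This check therefore does not cover those features of the data.

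The members and gene lists were chosen with earlier results of these data known. The text names the members, listed genes with an adjusted p under 0.05 and an absolute log2 fold change of at least 0.58, up to 3 other listed genes of highest level per list, the androgen-induced check genes, and for each member the 2 genes with the most similar profile over the libraries. Genes that overlap a member, or lie within 50000 bases of it, were examined too, and those named were picked after their values were seen. Gene positions come from GENCODE v44 (GRCh38) and promoters from RefSeq (GRCh38.p14). For 6 of the 7 members the promoter table had an entry. Intervals for differences are from limma at 95%.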

Additional observations from a re-analysis of the deposited data

Results flagged for a closer look

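Over 44 groups of 5 or 10 libraries examined (6 members, 15 ratios of members and the number of reads, in each treatment), 3 had a library far from the others, where chance gives about 2.2. ERBB2 in R1881 + enzalutamide replicate 2 was at 273 CPM, and the next library of the group at 233 CPM. This library was also the one of its group with the strongest link to GC content, and without it the log2 fold change of ERBB2 was 1.118. ERRFI1 in R1881 + enzalutamide replicate 3 was at 29.1 CPM, below the next library at 31.9 CPM, and without it the log2 fold change of ERRFI1 was -2.37. R1881 + enzalutamide replicate 5 held 25416052 reads, more than the next library of its group with 22329140.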

How the results depend on the processing

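EGFR, ERBB2, ERRFI1, LRIG1 and LRIG3 kept their direction and passed the threshold under all 14 alternatives and with each of the 15 libraries left out. Over the alternatives the log2 fold change ranged from -0.9999 to -0.86 for EGFR, from 1.082 to 1.26 for ERBB2, from -2.48 to -2.31 for ERRFI1, from -2.11 to -2.01 for LRIG1 and from 1.205 to 1.35 for LRIG3. For ERBB3 the log2 fold change was 0.0078 with library totals set to 1000000, a reversed sign, and it missed the threshold with TMM factors (-0.071, adjusted p = 0.0524 from limma), by edgeR (-0.043), with the replicate block on the number in the title (-0.098, adjusted p = 0.0579 from limma) and against libraries 71 to 75 alone (-0.085). With each library left out it ranged from -0.099 to -0.072. Of the ligand release genes 3 were called with library totals set to 1000000, against 6. The cause was not tested. Over all genes, 47.7% of calls were higher as deposited and 60.7% with library totals set to 1000000. The number of genes called, 10660, ranged from 10010 to 10917. Deviations of same-numbered libraries correlated at r from -0.068 to 0.074 by the number in the title, with 1 of 5 R1881 + enzalutamide libraries closest to its own number. By the last digit of the library number r ranged from -0.42 to 0.67, with 2 of 10 pairs at 0.47 and 0.67. Not every pair correlated, so neither number was taken to pair the libraries. The block on the title number called 10043 genes and that on the last digit 10720. LRIG3 had the fewest reads of the members, 115 in its lowest library.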

Other observations

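For each member the 2 most similar profiles were sought among 12164 genes with a mean of at least 5 CPM, as the root-mean-square difference of log2(CPM + 0.5) over the 15 libraries after centring each gene. The profile of ERRFI1 was closest to ABCC4, a transporter of organic anions (difference 0.071), which went from 1086 ± 53.1 CPM (SD over 10 libraries) to 210 ± 7.37 CPM (SD over 5 libraries), and to KCNMA1, a calcium-activated potassium channel (0.080). LRIG1 was closest to the luminal keratin KRT18 (0.063) and its pseudogene KRT18P11 (0.062), whose reads could belong to KRT18. EGFR was closest to AK4P1 and AK4P3 (0.034 and 0.038), pseudogenes whose reads could belong to their parent gene.

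Of the members that rose, ERBB2 was closest to CLSTN3 (0.082), which went from 38.1 ± 4.11 to 78.9 ± 8.999 CPM, and to the corepressor TLE3 (0.098). LRIG3 was closest to the Wnt receptor FZD3 (0.083), which went from 18.7 ± 1.43 to 46.8 ± 3.83 CPM, and to the lysosomal amino acid transporter SLC38A9 (0.088). ERBB3, which differed little between treatments, was closest to RAB5B and SNX19 (0.028 for each). These distances are dominated by the difference between treatments and say nothing of shared control.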
